A study of Mus musculus with 6 samples.

Results

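DNA repair genes were followed by pathway in 4T1 cells, an established line from a mammary carcinoma of a Balb/c mouse, after knockout of Atm, the gene of a kinase that responds to DNA double-strand breaks. The genes were given as a list of symbols, chosen with earlier results of these data known. The list named 47 symbols, and 46 of them are among the 13405 genes of the deposited tables. The remaining symbol, Claspn, is in no table, and a row spelled Clspn (claspin, a checkpoint mediator) is given separately and not counted. RNA was sequenced from 2 groups of 3 libraries: 4T1 cells carrying a vector control, and ATM KO 4T1 cells. The labels give no guide or clone for the knockout, and do not tie the 3 libraries of a group to separate cultures, so the p-values measure only how these libraries vary, and that variation may be technical. No treatment or damaging agent is named for either group.

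Cells mend broken or altered DNA by several routes. Homologous recombination copies the sister chromatid and works mainly in S and G2 phase, end joining rejoins broken ends directly, and the Fanconi pathway unhooks crosslinks. Mismatch repair removes replication errors, nucleotide excision repair cuts out bulky lesions, and base excision repair replaces single damaged bases. ATM acts above the double-strand break routes mostly by phosphorylating their proteins, which mRNA levels do not record, and many genes of homologous recombination, the Fanconi pathway and mismatch repair are transcribed most in S phase.

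The promoters below belong to 4 of the members on which the results turn, and each holds a marked word. Brca2 and Xrcc3 had groups that did not overlap, the call of Mdc1 depends on 1 library, and Fanca varied widely between libraries. Lig1, whose groups did not overlap either, and Lig4, whose call also depends on 1 library, are not printed. Their promoters hold neither kind of word in the 250 bases before the start. They are from RefSeq on GRCm38.p6, on the strand of the gene, and end at the base before the RefSeq start site. Capitals mark 2 kinds of word, searched on both strands: TTTCCCGC, TTTGGCGC, TTTCGCGC and TTTGCCGC, which are forms of the E2F site of S phase genes, and CCAAT, the CCAAT box bound by NF-Y.
Brca2, chr5:150522421-150522620, + strand: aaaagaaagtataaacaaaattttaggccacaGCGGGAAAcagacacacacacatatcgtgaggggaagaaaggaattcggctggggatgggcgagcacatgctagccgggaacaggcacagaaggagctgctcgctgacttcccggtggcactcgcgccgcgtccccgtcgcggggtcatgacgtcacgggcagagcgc
Xrcc3, chr12:111813880-111813999, - strand: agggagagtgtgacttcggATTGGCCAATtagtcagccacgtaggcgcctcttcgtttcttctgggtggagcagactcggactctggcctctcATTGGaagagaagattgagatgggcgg
Mdc1, chr17:35841378-35841497, + strand: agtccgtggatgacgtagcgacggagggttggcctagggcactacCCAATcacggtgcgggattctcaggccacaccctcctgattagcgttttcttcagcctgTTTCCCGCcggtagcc
Fanca, chr8:123318577-123318696, - strand: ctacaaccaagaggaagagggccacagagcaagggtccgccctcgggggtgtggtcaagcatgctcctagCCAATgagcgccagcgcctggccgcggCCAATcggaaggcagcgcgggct

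Promoters were found for 35 of the 46 members. The other members are Rad50, Rbbp8, Xrcc2, H2afx, Rif1, Fancd2, Wrn, Exo1, Ercc3, Xpc and Polb. In the 250 bases before the start, an E2F word was present in 5 of 40 member promoters (12.5%), those of Bard1, Brca2, Mdc1, Topbp1 and Xrcc6, and in 611 of all 32851 promoters (1.86%). CCAAT was present in 19 of 40 member promoters (47.5%) and in 33.8% of all. The CCAAT and E2F words do not overlap each other, and in Xrcc3 a pair of CCAAT words on opposite strands lie side by side. A match describes letters only and is not evidence of binding.

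The recovered reads per library ranged from 22494919 to 32341508. Vector control 1 stood apart: the first principal component, 59.4% of the variance, placed it at -86.2, with ATM KO 2 at -41.5, ATM KO 1 at 3.19, vector controls 2 and 3 at 36.9 and 37.0, and ATM KO 3 at 50.7. Over the 46 members, vector controls 2 and 3 agreed within counting noise, with a median chi-square of 0.354 per gene against 0.455 for pure counting, and a summed chi-square of 56.5 (p = 0.138). Over all tested genes they differed more than counting allows, with 10.7% of genes above 3.84, and they were kept as separate libraries. Values with this pair averaged into 1 sample are given beside some of the results that they move, and without vector control 1 the controls rest on that pair alone. Atm itself was not lower in the libraries labelled ATM KO, at 1978, 1613 and 1519 normalized counts in vector controls 1 to 3, against 1959, 2220 and 1591 in ATM KO 1 to 3 (log2 difference 0.17, SE 0.19), so mRNA level does not check the knockout labels. Of 9 epithelial markers 8 were listed, with Krt5 at 0. Their summed level was 65790 to 108000 in the controls and 82350 to 139700 in ATM KO. The 7 tested had log2 differences of 0.03 to 2.24 (median 0.28), with 0 called by limma. Of 10 immune markers 2 were listed (Csf1r and Cd68, 529 to 1467 and 703 to 1774), with Ptprc, Cd3e and Cd79a among those not listed. Of the fibroblast markers 4 of 9 (186 to 734 and 393 to 1088) and of the endothelial markers 2 of 7 (2105 to 2511 and 2724 to 3280) were listed.

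No repair gene differed between ATM KO and vector control cells past the threshold with all 6 libraries. All 46 members had a mean of at least 10 normalized counts and were tested, in a limma fit over 12149 genes on log2(value + 1) with Benjamini-Hochberg adjustment. Of the members, 0 were called, as were 0% of all tested genes, and the lowest adjusted p among members was 0.999. edgeR called 0 members (0% of all genes), and DESeq2 called 0 members (0.691% of all genes), with a lowest member adjusted p of 0.385. At an unadjusted limma p under 0.05 stood 1 member, Fancd2, where 4.16% of all tested genes did, and edgeR and DESeq2 likewise gave Fancd2 alone, against 4.3% and 5.9% of all genes. The groups did not overlap for 4 members, Fancd2, Lig1, Brca2 and Xrcc3, each lower in every ATM KO library. The background is that 5.48% of all tested genes were lower and 5.7% higher without overlap, and 0 members were higher without overlap. When every library was scaled to an equal total, Xrcc3 overlapped and the other 3 did not.

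**Figure D1:**
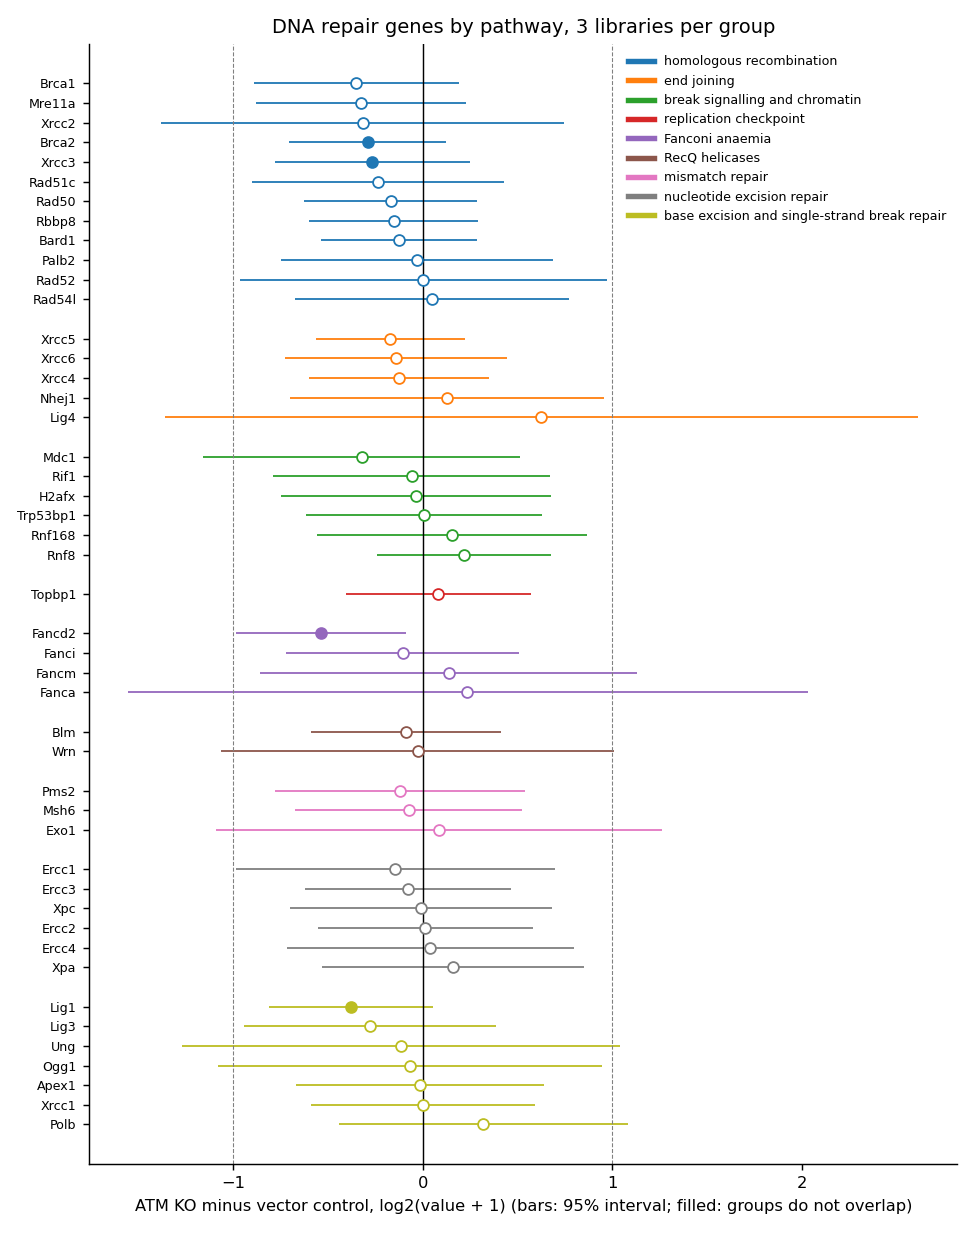
Difference between ATM KO and vector control for each repair gene, ordered by pathway, on the log2(value + 1) scale (x axis; 3 libraries per group). Circles are limma estimates with 95% intervals, filled circles are genes whose groups do not overlap, and dashed lines mark a 2-fold difference. Of the 46 genes, 30 lie below 0, and Lig4 and Fanca have the widest intervals.

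Fancd2 encodes the protein that, once monoubiquitinated together with its partner FANCI, directs crosslink repair. The gene (GRCm38, chr6:113531682-113597017, + strand) stood at 1408, 1831 and 1854 normalized counts in vector controls 1 to 3, against 1223, 1255 and 1017 in ATM KO 1 to 3. Every ATM KO library was below every control, and vector control 1 was the control nearest to them. The means were 1698 ± 251 and 1165 ± 129 (SD, n = 3 each), a limma log2 difference of -0.54 (SE 0.19, 95% interval -0.986 to -0.0899, unadjusted p = 0.0256). DESeq2 gave an adjusted p of 0.385. With vector controls 2 and 3 averaged the difference was -0.47 (SE 0.243) with an unadjusted limma p of 0.101. Without vector control 1 it was -0.67, and without ATM KO 3 it was -0.44.

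Lig1, the ligase that joins Okazaki fragments and seals long patches in base excision repair (chr7:13277283-13311433, + strand), stood at 4374, 5125 and 5173 in the controls. In ATM KO 1 to 3 it stood at 4112, 4218 and 3038, so ATM KO 1 and 2 lay close under vector control 1 and ATM KO 3 lay well under all others. The means were 4891 ± 448 and 3789 ± 653 (SD, n = 3 each), a log2 difference of -0.38 (SE 0.18, limma adjusted p = 0.999). The difference was -0.23 without ATM KO 3.

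Brca2, a mediator of homologous recombination (chr5:150522630-150570329, + strand), stood at 5292, 3851 and 3840 in the controls, against 3624, 3446 and 3425 in ATM KO 1 to 3. Vector control 1 was far above the other controls, which lay close over the ATM KO libraries. The means were 4328 ± 835 and 3498 ± 109 (SD, n = 3 each), a log2 difference of -0.29 (SE 0.17, limma adjusted p = 0.999), and -0.14 without vector control 1. Xrcc3, which acts in homologous recombination (chr12:111803192-111813873, - strand), stood at 321, 274 and 283 in the controls, against 254, 266 and 211 in ATM KO. ATM KO 2 lay just under vector control 2. The log2 difference was -0.26 (SE 0.21, limma adjusted p = 0.999), from means of 293 ± 25.2 and 244 ± 29.0 (SD, n = 3 each).

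**Figure D2:**
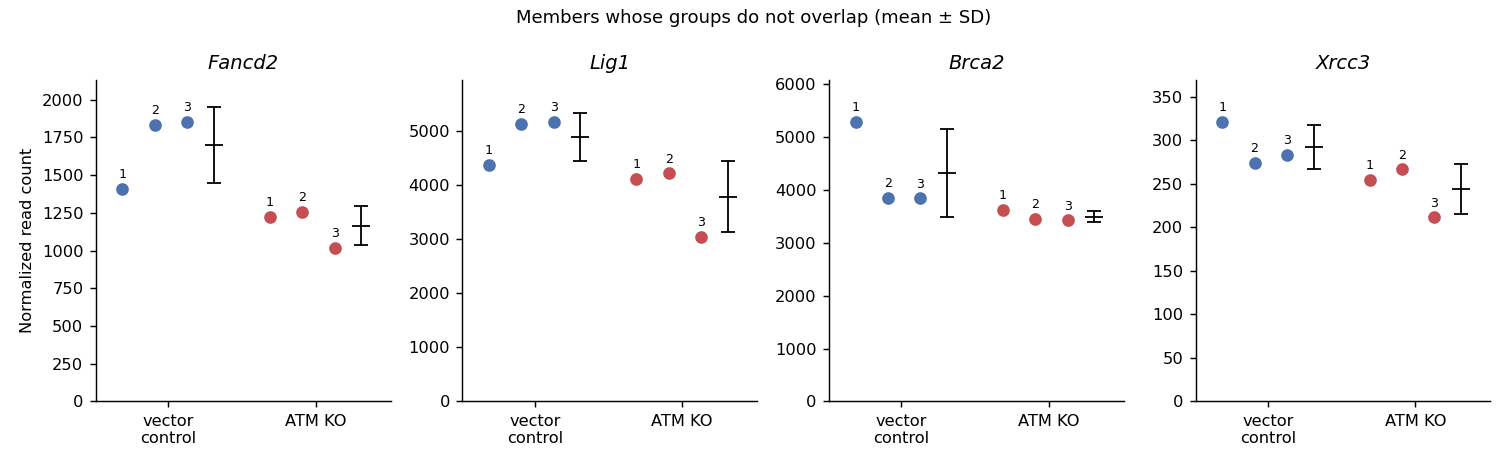
Normalized read counts (y axis, from 0) of the 4 repair genes whose groups did not overlap, in each vector control (blue) and ATM KO (red) library, numbered by replicate, with mean ± SD at the right of each group. In Fancd2 and Lig1 vector control 1 is the lowest control, and in Brca2 and Xrcc3 it is the highest.

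Leaving out vector control 1 changed these counts more than any other single library did. Without it, 19 members did not overlap between the groups. Of these, 12 were lower in ATM KO (Brca1, Brca2, Rad51c, Rad50, Xrcc3, Trp53bp1, Mdc1, H2afx, Fancd2, Wrn, Ercc1 and Lig1), where 21.8% of all tested genes were. The other 7 were higher (Lig4, Rnf8, Rnf168, Ercc4, Xpa, Ogg1 and Polb), where 19.6% of all tested genes were. Without ATM KO 3, 7 members did not overlap: Brca2, Xrcc3, Xrcc4, Fancd2 and Lig1 were lower (9.42% of all genes) and Topbp1 and Msh6 higher (9.09% of all genes). Without vector control 1 and ATM KO 2, 22 members did not overlap, 15 lower (27.2% of all genes) and 7 higher (26.7% of all genes). DESeq2 without vector control 1, a fit added after the data were seen, called 3 members and 4.48% of all tested genes. These were Mdc1 (log2 -0.70, adjusted p = 0.0152), Fancd2 (log2 -0.66, adjusted p = 0.0179) and Lig4 (log2 1.68, adjusted p = 0.0286). The controls of that fit are the pair that agreed within counting noise over the members, and limma called 0 members on the same 5 libraries.

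Over the members as a set, 30 of 46 log2 differences were below 0 (65.2%), against 51.4% of all tested genes, with a median of -0.07 against -0.01. Scaling to equal totals moved the median of all genes to 0.03 and their share below 0 to 45.5%. The count of members below 0 moved to 26 of 46. The count was 24 without vector control 1, where 50.1% of all genes lay below 0, and 24 without ATM KO 3, where 48.5% did. It was 32 to 35 when any other single library was left out, where 51.1% to 51.7% of all genes lay below 0. ATM KO 3 was the lowest of the 6 libraries for 29 members (63%), where it was lowest for 25.8% of all tested genes. Vector control 1 was the highest for 19 members, where it was highest for 31.9% of all tested genes. For 36 of 46 members (78.3%) the limma 95% interval lay within a 2-fold difference either way, as for 55.1% of all tested genes. The exceptions were Xrcc2, Lig4, Mdc1, Fanca, Fancm, Wrn, Exo1, Ogg1, Ung and Polb. These intervals count vector controls 2 and 3 as separate libraries. With that pair averaged the SE was larger for every member, as for Brca1, where it rose from 0.22 to 0.28.

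**Figure D3:**
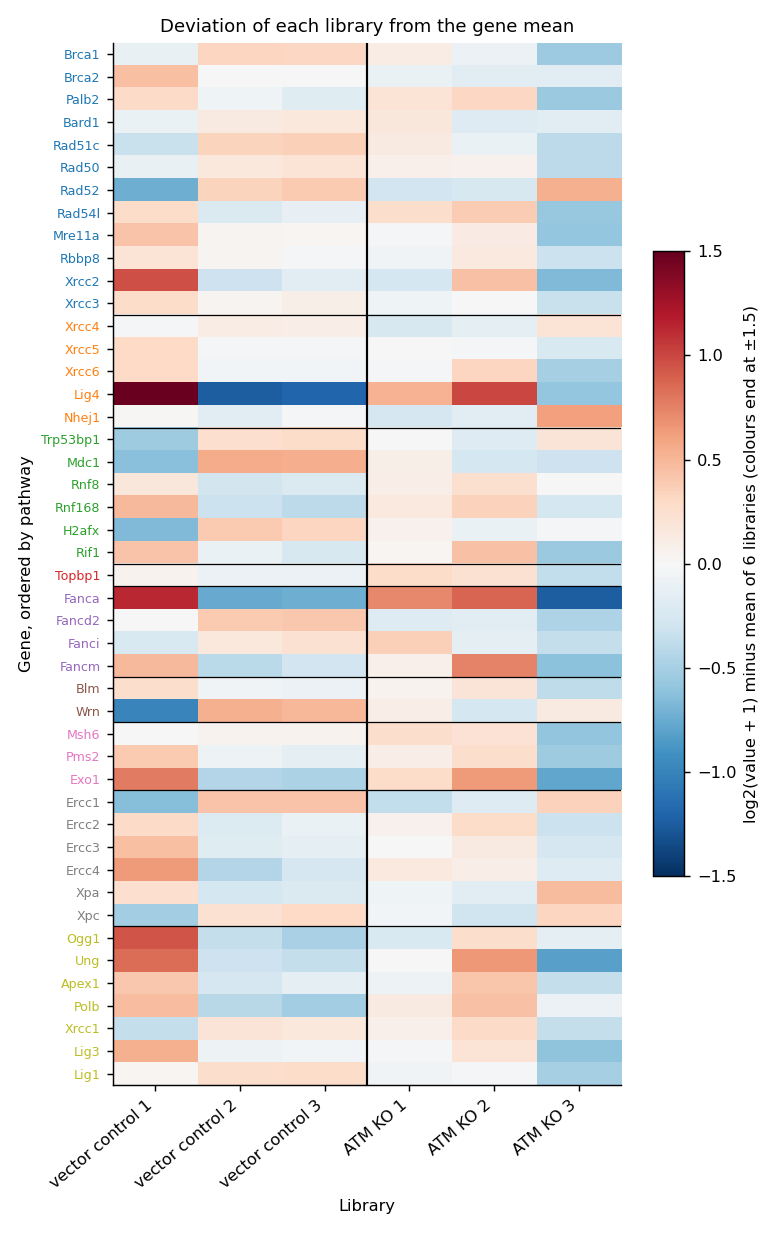
Deviation of each library from the gene's mean over the 6 libraries (colour, log2 scale, red above and blue below, colours end at ±1.5), with genes in rows by pathway and libraries in columns. ATM KO 3 is blue in most rows, vector control 1 holds the strongest red (Lig4), Fanca in ATM KO 3 and Lig4 in vector controls 2 and 3 are the deepest blue, and vector controls 2 and 3 are nearly alike in every row.

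Homologous recombination held 12 members, of which 10 lay below 0 and 2 above, with a median log2 difference of -0.20 and none called. As single libraries were left out, the median ranged from -0.26 to -0.09, the last without ATM KO 3. The medians of the libraries, as deviations from the gene means, were 0.24, 0.04 and 0.06 for vector controls 1 to 3, against 0.02, 0.03 and -0.39 for ATM KO 1 to 3. ATM KO 1 and 2 therefore lay beside vector controls 2 and 3, and ATM KO 3 was alone below.

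Among the end-resection genes, Mre11a and Rad50, the nuclease and the ATPase of the MRN complex that recruits ATM, had log2 differences of -0.33 (SE 0.23) and -0.17. Rbbp8, which encodes CtIP, had -0.15. Brca1, which promotes resection, stood at 3131, 4222 and 4188 in the controls, against 3646, 3166 and 2316 in ATM KO. The groups overlapped because vector control 1 lay under ATM KO 1 and 2 (log2 -0.35, SE 0.22). Its partner Bard1 had -0.12, and Palb2, which bridges BRCA1 and BRCA2, -0.03.

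Rad51c and Xrcc2, which act in the strand exchange steps, had log2 differences of -0.24 and -0.32. Rad51c was at -0.46 without vector control 1 and -0.10 without ATM KO 3. Xrcc2 was at 0.09 without vector control 1, -0.62 without ATM KO 2 and -0.52 with vector controls 2 and 3 averaged. Xrcc2 stood at 1037, 428 and 471 in the controls, against 443, 724 and 337 in ATM KO, with vector control 1 and ATM KO 2 the highest of their groups. Rad52, a mediator of strand annealing, stood at 194, 407 and 423 and then 264, 274 and 467, with overlapping groups (log2 0.00). The motor protein gene Rad54l had 0.05. Of 21 other genes of this route, 13 lay below 0 and 8 above, with a median of -0.03 and 0 called.

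End joining held 5 members, 3 below 0 and 2 above, with a median of -0.13 that ranged from -0.11 to -0.03 as single libraries were left out. Xrcc5 and Xrcc6, which encode the Ku80 and Ku70 subunits that bind broken ends, had log2 differences of -0.17 and -0.14. Xrcc4, the scaffold of ligase IV, had -0.12, and Nhej1, its XLF partner, had 0.13. All 6 other end joining genes in the files lay below 0, with a median of -0.19 and 0 called.

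Lig4, the ligase of end joining, had the largest spread of any member. It stood at 703, 105 and 109 normalized counts in vector controls 1 to 3, against 360, 500 and 166 in ATM KO 1 to 3. Vector control 1 was above every ATM KO library, and vector controls 2 and 3 were below every one. The log2 difference was 0.62 (SE 0.82, 95% interval -1.36 to 2.61, limma unadjusted p = 0.475), 1.52 without vector control 1, and 0.17 with vector controls 2 and 3 averaged. In vector control 1 Lig4 was 6.54 times the mean of the other controls.

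Break signalling and chromatin held 6 members, 3 above and 3 below 0, with a median of -0.01. The median was 0.08 without ATM KO 3 and -0.06 without vector control 1, and 0.02 on equal totals. H2afx, the histone variant that ATM phosphorylates around breaks, stood at 1990, 4103 and 3929 in the controls, against 3272, 2934 and 3094 in ATM KO (log2 -0.04, SE 0.30). The ATM KO libraries lay together, between vector control 1 and the other controls. Mdc1, which binds phosphorylated H2AX, stood at 2647, 6026 and 5971 in the controls, against 4343, 3401 and 3299 in ATM KO. Here too the ATM KO libraries lay between vector control 1 and the other controls (log2 -0.32, SE 0.35), and -0.72 without vector control 1.

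The ubiquitin ligases that act after MDC1, Rnf8 and Rnf168, had log2 differences of 0.22 (SE 0.19) and 0.15. Trp53bp1, the 53BP1 protein that protects ends from resection, had 0.01, and Rif1, its effector, -0.06. Among 15 other genes of this group, 11 lay below 0 and 4 above (median -0.12, 0 called). Topbp1, an activator of the ATR kinase and the only replication checkpoint member found, stood at 12424, 11244 and 11261 in the controls, against 14446, 14011 and 9236 in ATM KO. ATM KO 1 and 2 were above every control and ATM KO 3 below every one (log2 0.08, SE 0.20). Clspn stood at 2534, 1323 and 1393 and at 2005, 2427 and 1344, with overlapping groups (log2 0.16, SE 0.34).

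The Fanconi group held 4 members, 2 above and 2 below 0. Its median of 0.02 ranged from -0.19 to 0.27 as single libraries were left out, and was -0.06 with vector controls 2 and 3 averaged. Fanca, a subunit of the core complex that ubiquitinates FANCD2, stood at 2470, 669 and 677 in the controls, against 1852, 2070 and 476 in ATM KO. It was high in vector control 1, ATM KO 1 and ATM KO 2 and low in the other libraries (log2 0.24, SE 0.74, and -0.08 with vector controls 2 and 3 averaged). Fanci, the partner of Fancd2, had -0.10 (SE 0.25), and Fancm, the translocase that anchors the core complex, 0.14. Of 13 other Fanconi genes in the files, 10 lay below 0 and 3 above (median -0.07, 0 called).

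The RecQ helicases Blm and Wrn, which unwind recombination and fork structures, had log2 differences of -0.09 and -0.02. Wrn stood at 1087, 3127 and 3063 in the controls, against 2317, 1803 and 2377 in ATM KO, again with the ATM KO libraries between vector control 1 and the other controls. Of 7 other genes in this group, 5 lay below 0 (median -0.16).

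Mismatch repair held 3 members, with a median of -0.07 that ranged from -0.21 to 0.20 as single libraries were left out. Msh6, which takes part in mismatch recognition, stood at 5619, 5800 and 5837 in the controls, against 6733, 6525 and 3725 in ATM KO (log2 -0.07, SE 0.25). As for Topbp1, ATM KO 1 and 2 were above every control and ATM KO 3 below. Exo1, the exonuclease that removes the mismatched strand, stood at 1905, 817 and 801 and at 1342, 1724 and 645, with overlapping groups (log2 0.09, SE 0.49). Pms2, the endonuclease subunit, had -0.12. Of 14 other mismatch repair and associated polymerase genes, 11 lay below 0 and 3 above (median -0.17, 0 called).

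Nucleotide excision repair held 6 members, 3 on each side of 0, with a median of 0.00 that ranged from -0.04 to 0.14 as single libraries were left out. Xpc, the damage sensor, and Xpa, which verifies the lesion, had log2 differences of -0.01 and 0.16. The TFIIH helicase genes Ercc2 and Ercc3 had 0.01 and -0.08. Ercc4 and Ercc1, which encode the paired subunits XPF and ERCC1 of a nuclease, had 0.04 and -0.14. Ercc1 stood at 1883, 3936 and 3941 in the controls, against 2270, 2562 and 3719 in ATM KO, while Ercc4 stood at 1164, 552 and 627 and at 829, 804 and 658. In vector control 1 these partners thus lay on opposite sides of the other controls, Ercc1 below and Ercc4 above. Of 18 other genes of this route, 11 lay below 0 and 7 above (median -0.07, 0 called).

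Base excision and single-strand break repair held 7 members, 5 below 0 and 2 above, with a median of -0.07. The median was 0.19 without vector control 1 and 0.17 without ATM KO 3, but -0.26, -0.32 and -0.22 without vector control 2, vector control 3 and ATM KO 2, and -0.29 with vector controls 2 and 3 averaged. The glycosylase genes Ogg1, for oxidised guanine, and Ung, for uracil, had log2 differences of -0.06 and -0.12. Ung stood at 1508, 680 and 659 in the controls, against 841, 1324 and 477 in ATM KO, and Ogg1 at 669, 271 and 248 and at 297, 417 and 317. In both genes vector control 1 was the highest library.

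Apex1, the endonuclease that cuts at the abasic site, had a log2 difference of -0.01, but 61.7% of its exon bases are shared with other annotated genes, so its count is uncertain. Polb, the gap-filling polymerase, stood at 857, 467 and 433 in the controls, against 684, 843 and 586 in ATM KO (log2 0.32, SE 0.32). Vector control 1 alone was above the ATM KO libraries, and the difference was 0.63 without it. Xrcc1, the scaffold at nicks, and Lig3, its ligase, had 0.00 and -0.28 (SE 0.28). Of 17 other genes in the files, 12 lay below 0 and 5 above (median -0.20, 0 called).

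**Figure D4:**
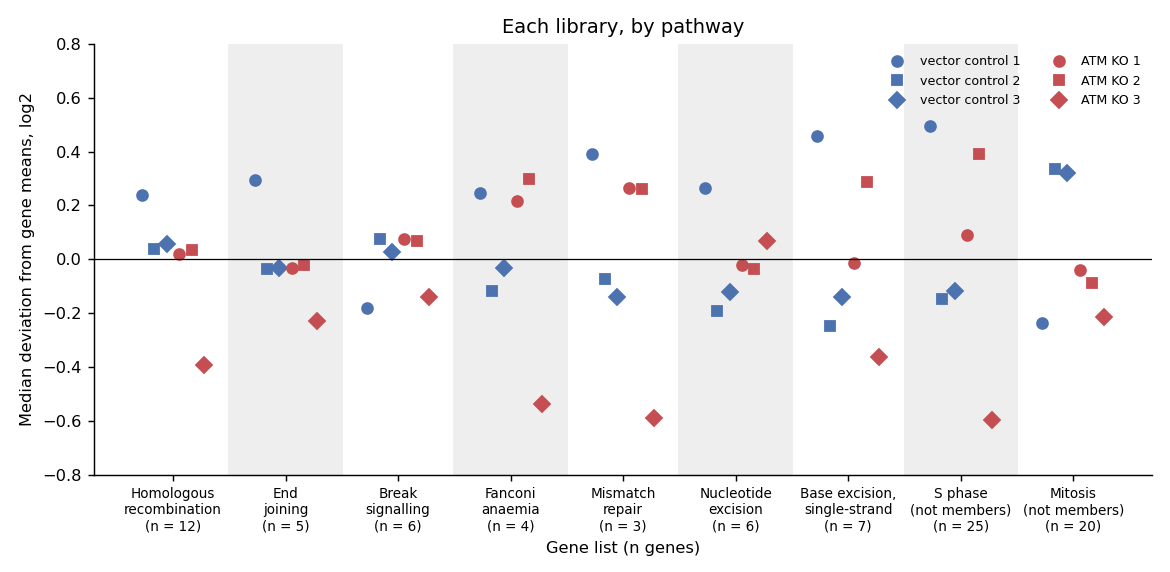
Median deviation of each library from the gene means (y axis, log2 scale) for the repair pathways with at least 3 members and for lists of S phase and mitosis genes that hold no member, with vector control in blue and ATM KO in red and a symbol per replicate. ATM KO 3 is lowest in 5 of the 7 repair pathways, at -0.39 in homologous recombination and -0.60 in S phase genes.

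The cell cycle lists moved between libraries beside the repair genes. The 25 S phase genes had medians of 0.50, -0.15 and -0.12 for vector controls 1 to 3, against 0.09, 0.39 and -0.60 for ATM KO 1 to 3. All members together had 0.27, -0.04 and -0.04 and then 0.06, 0.14 and -0.36, in which vector control 1 is again the highest and ATM KO 3 the lowest. The 20 mitosis genes had another order, with -0.24, 0.33 and 0.32 and then -0.04, -0.09 and -0.21. Between the groups, 17 of 25 S phase genes and 20 of 20 mitosis genes lay below 0, with medians of -0.12 and -0.27 and 0 called in either list. In bulk RNA, fewer cells in a phase and less RNA per cell cannot be told apart, and the part of the cell cycle in the repair gene values was not tested.

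Of 119 other repair genes, taken from lists of these pathways, 84 lay below 0 (70.6%, against 51.4% of all tested genes) and 35 above, with a median of -0.12 and 0 called by limma, edgeR or DESeq2. The median was -0.06 without vector control 1 and -0.003 without ATM KO 3. The groups did not overlap for 7 lower genes (5.88%, against 5.48% of all tested genes) and 1 higher gene (0.84%, against 5.7%). The share of lower genes is thus near the background. Pold2, a subunit of DNA polymerase delta, had the largest of these differences, at 3175, 2555 and 2491 in the controls, against 2214, 2155 and 1134 in ATM KO. Every ATM KO library was lower and ATM KO 3 lowest by far (log2 -0.63, SE 0.29).

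Mpg, an alkyladenine glycosylase, was even within groups, at 511, 527 and 526 in the controls, against 416, 394 and 427 in ATM KO (log2 -0.34, SE 0.17). Of its exon bases, 35.7% are shared with other genes. Hmgb1, a chromatin protein listed with base excision repair, was the 1 higher gene, at 311, 325 and 307 and then 396, 439 and 438 (log2 0.43, SE 0.18, DESeq2 adjusted p = 0.394). It has many processed pseudogenes, which can take its reads. Timeless, a fork protection gene, had -0.37 (SE 0.20). Rad18, a ubiquitin ligase of damage tolerance, and Atrip, the partner of ATR, each had -0.33 (SE 0.19). Cetn2, a subunit of the XPC complex, had -0.27 (SE 0.17).

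The members differed among themselves far more in level than the groups did. Per kilobase of exon, H2afx was highest in the mean of the 6 libraries, at 1438, 2964 and 2839 normalized counts in the controls, against 2365, 2120 and 2236 in ATM KO. It was followed by Apex1 at a mean of 1900, Msh6 at 1313, Topbp1 at 1078 and Lig1 at 1017. Over the mean of the 6 libraries Palb2 was lowest, at 68.7, 53.5 and 49.5 in the controls, against 64.7, 69.5 and 38.2 in ATM KO. Rad52 at 58.8, Fancm at 59.5, Nhej1 at 60.0 and Lig4 at 62.3 lay beside it, within the spread of their libraries. In no single library was Palb2 the lowest: that was Rad52 in vector control 1, ATM KO 1 and ATM KO 2, and Lig4 in the other libraries. Apex1 was above H2afx in vector control 1 and ATM KO 2. Within end joining, Xrcc5 stood at 901 per kilobase and Lig4 at 62.3.

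**Figure D5:**
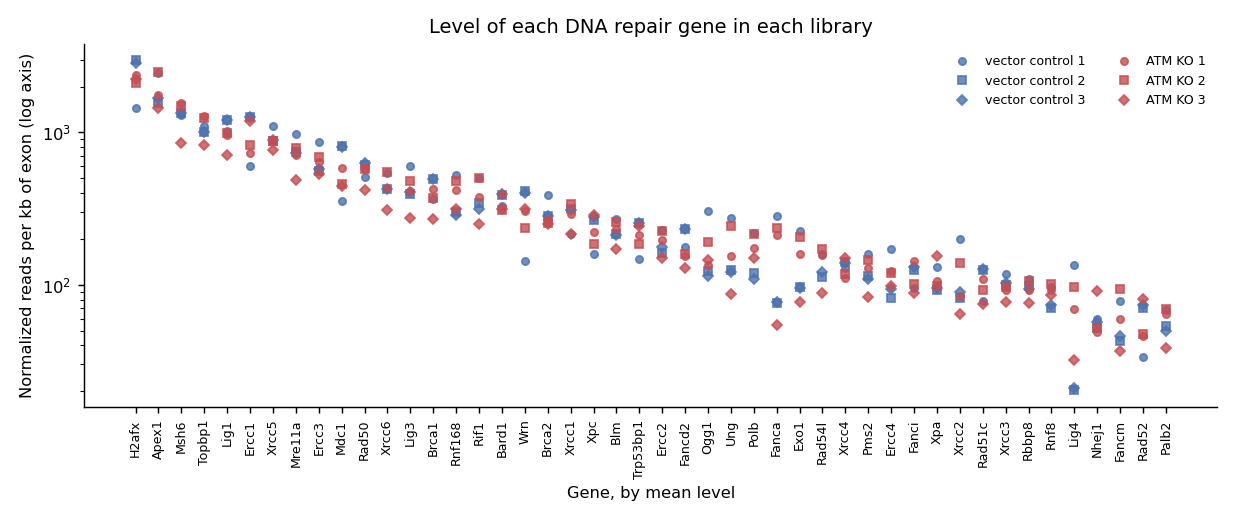
Level of each repair gene in each library, in normalized reads per kilobase of exon (y axis, log scale), ordered by the mean of the 6 libraries, with vector control in blue and ATM KO in red. By that mean H2afx is highest and Palb2 lowest, Apex1 is above H2afx in vector control 1 and ATM KO 2, and the groups overlap for most genes.

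The spread between control libraries exceeded the difference between the groups for most members. Vector control 1 differed from the mean of the other controls by more than the groups differed in 40 of 46 members (87%), as in 79.4% of all tested genes. The median size of that gap was 0.52 on the log2 scale for the members and 0.60 for all tested genes, against a median group difference of 0.13 and 0.19. The gap of a single library varies more than a difference between group means, so it can be the larger without any library standing apart. Vector control 1 was also singled out from these same values. More than 2-fold higher in vector control 1 were 6 members (Xrcc2, Lig4, Fanca, Exo1, Ogg1 and Ung), against 12.8% of all tested genes. Another 5 (Rad52, Mdc1, H2afx, Wrn and Ercc1) were more than 2-fold lower, against 16% of all tested genes. In 10 members more than 10% of exon bases are shared with another annotated gene on either strand, among them Ercc2 (42.7%) and Lig3 (25.1%). Their counts are uncertain, since they could gain reads of that gene or lose reads on the shared bases.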

How the data were processed

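RNA-seq libraries of 4T1 cells, 3 vector control and 3 ATM KO, were grouped by their titles. Per the submitters' processing notes the tools were STAR, HTSeq, DESeq2, Trim Galore, cutadapt and SAMtools, without versions or roles, and the builds were GRCm38 and mm9. Each deposited value is a normalized signal, a gene's read count over a factor of its library. This was read from the values, 100% of which are whole reads within 0.01. How the listed genes were kept and whether counting used strand are not given in the sources used here.

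Genes with a mean of at least 10 were tested with limma 3.58.1 (R 4.3.3, mean-variance trend, 2-sided) on log2(value + 1), which understates changes of low genes. The threshold was an adjusted p of 0.05. The recovered reads were also tested with DESeq2 1.42.0 and with edgeR 4.0.16 (quasi-likelihood). Scripts were tested on simulated counts. Coordinates and exon lengths are from GENCODE M21 (GRCm38), which held 98.8% of the IDs. Median differences of a pathway are descriptions with no test.

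The members, gene lists and tests were chosen with earlier results of these data known. Every member is named. Members without overlap, with an unadjusted p under 0.05, or at the ends of the per-kilobase order are given in every library. Of the other repair genes, those called, or up to 2 per pathway without overlap and with the smallest p, are named. Further members given in every library were picked after their values were seen. Alternatives covered the pseudocount (0.5 and 5), the filter (none and 50), scaling, the tools, a replicate block and leaving out libraries.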

Additional observations from a re-analysis of the deposited data

How the results depend on the processing

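No setting run with limma or edgeR called any gene. DESeq2 called 84 genes with all libraries and 544 without vector control 1, of which 0 and 3 were members. Members without overlap numbered 4, with a range of 4 to 19 as single libraries were left out (7 without ATM KO 3) and 22 without vector control 1 and ATM KO 2. Leaving out a library cannot make separate groups overlap, so this count can only stay or rise. Over all tested genes the shares rose likewise, from 5.48% lower and 5.7% higher to 27.2% and 26.7% without both. Averaging vector controls 2 and 3, chosen after seeing the data, left 4 without overlap and 0 called, and 221 of all genes (1.82%) at an unadjusted limma p under 0.05. The pathway medians of break signalling, the Fanconi group, mismatch repair, nucleotide and base excision repair took both signs as libraries were left out. Their ranges were -0.06 to 0.08, -0.19 to 0.27, -0.21 to 0.20, -0.04 to 0.14 and -0.32 to 0.19. The medians of homologous recombination (-0.26 to -0.09) and end joining (-0.11 to -0.03) did not take both signs. The cause was not tested.

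Of 55 named genes under 18 alternatives, 111 of 990 log2 differences had the other sign, and 25 genes, 17 of them members, kept theirs throughout. These counts were partly fixed in advance. Genes named because their groups did not overlap cannot change sign as libraries are left out. The replicate block and the filters leave a gene's limma difference as it was, and the pseudocounts barely move it. Same-numbered deviations from the group means correlated at -0.02, -0.58 and 0.53. The highest value over all pairs was 0.61, between vector control 1 and ATM KO 2, whose numbers differ. Vector control 1 and ATM KO 3 correlated at -0.55. Vector controls 2 and 3 correlated alike with ATM KO 2 (-0.582 and -0.591) and with ATM KO 3 (0.533 and 0.528). These values therefore cannot tell whether the replicate numbers pair the libraries. With the replicate block limma called 0 genes and 296 (2.44%) had an unadjusted p under 0.05, with Fancd2 at an unadjusted limma p of 0.0741. Leaving out 1 library of a group leaves 2, and among the controls the outcome depended on which pair was kept. With vector controls 2 and 3 kept, 1778 of all tested genes (14.6%) had an unadjusted limma p under 0.05. Dropping vector control 2 instead gave 228 (1.88%), and dropping vector control 3 gave 230 (1.89%). The ATM KO libraries were the same in these fits.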
